A study of Homo sapiens with 18 samples.

Results

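The effect of 8 h of piroxicam was measured over 8 of the 18 arrays of the series. The 4 arrays labelled piroxicam (P) or piroxicam/cisplatin (P/C) were set against the 4 arrays labelled untreated or cisplatin (C), and each of these groups had 2 arrays, numbered replicate 1 and replicate 3. The presence of cisplatin and the replicate number were covariates of the model, so a gene was compared between arrays that were alike in both. All arrays came from MSTO-211H, an established line of human malignant mesothelioma, hybridised to HGU133A chips that measure a gene by 1 or more probe sets. Cells were seeded in complete medium and left to attach, then were left untreated or received 760 µM piroxicam, 4.5 µg/mL cisplatin or both drugs for 8 h or 24 h. The untreated arrays come from cells without drug, and the sources used here name no vehicle. The results describe 1 cell line at 1 dose of each drug. The deposited values are log2 signals, so a difference of 1 is a 2-fold difference in signal.

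Piroxicam belongs to the non-steroidal anti-inflammatory drugs and blocks the cyclooxygenases PTGS1 and PTGS2, the enzymes that open prostaglandin synthesis. Cisplatin forms adducts with DNA. Cells that run short of amino acids, or whose protein folding is strained, phosphorylate the initiation factor eIF2, and translation of the transcription factor ATF4 then rises, which with its partners of the C/EBP family switches on genes of amino acid supply. This programme is called the integrated stress response. A second set of genes, among them DDIT4 and TXNIP, answers shortage or excess of nutrients and restrains growth signalling and glucose uptake.

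The 8 arrays were alike in their overall signal. Their median log2 signal ranged from 2.72 to 2.81, and signals of 100 or more (log2 6.64) were reached by 15.5% to 16.4% of probe sets. A gene near the array median is therefore close to background. The difference between the 3' and 5' probe sets of ACTB, a sign of RNA integrity, ranged from 0.928 to 1.6 with piroxicam and from 0.811 to 1.88 without, and that of GAPDH from 0.0675 to 0.498 and from 0.192 to 0.676, so both overlapped between the sides. Replicate 3 differed from replicate 1 in 82 probe sets (0.369%), and cisplatin gave 0 calls in limma at this time, with 1249 probe sets (5.62%) at an unadjusted p under 0.05. Of the mesothelial markers, VIM, KRT18 and KRT8 had mean log2 signals of 11.95, 11.76 and 9.54 without piroxicam, while MSLN at 2.33, KRT19 at 1.68 and CALB2 at 3.69 were at or near background. No leukocyte, endothelial or stromal marker of the 14, 7 and 10 measured reached a signal of 100 on any of the 8 arrays.

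With piroxicam DDIT4, DDIT3 and TXNIP were among the genes that rose within 8 h, and RGS4, PRP4K and ADM among those that fell. A probe set was called at a Benjamini-Hochberg adjusted p of at most 0.05 in limma together with a log2 change of 1 or more in size. By this rule 212 of 22215 probe sets (0.954%) were called, 74 higher (0.333%) and 138 lower (0.621%) with piroxicam. They represent 64 named genes that rose and 99 that fell. The median change of the called probe sets was 1.19 among the rises and -1.23 among the falls, against 0.01 over all probe sets. In 194 of the 212 the 4 arrays with piroxicam all lay on 1 side of the 4 without, a separation seen in 1819 of all probe sets (8.19%). These arrays also chose the called probe sets, so the separation is a description. In 140 of the 212 both sides had a mean signal below 100, so the size of many changes rests on dim signals. In RNA of whole cultures, fewer cells that express a gene and less RNA of it per cell cannot be told apart.

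The genes described first are the 15 largest rises and the 15 largest falls among the called probe sets with separated arrays and a mean signal of at least 100 on the higher side. Such genes numbered 21 among the rises and 31 among the falls. Their separation was a condition of this choice and is no finding, and the plot of the named genes by array gives their levels.

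**Figure D1:**
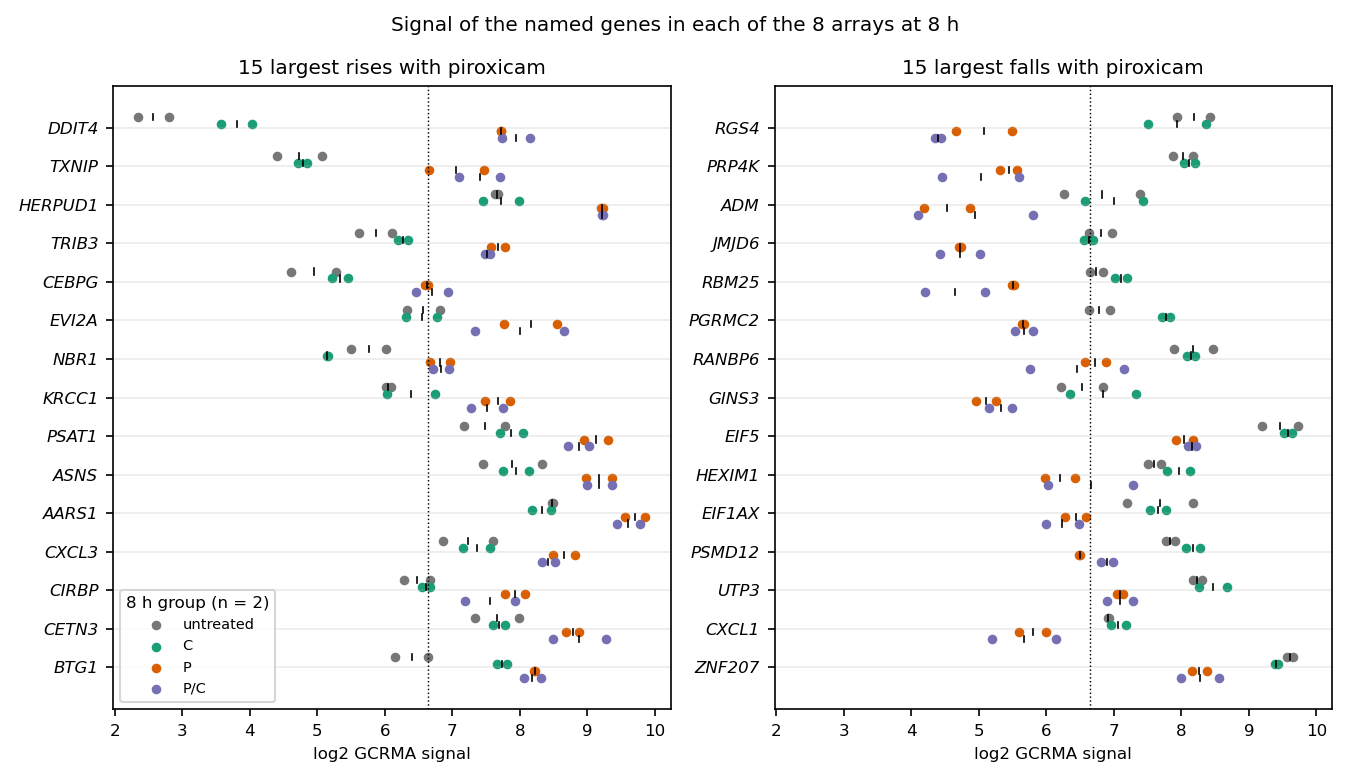
Log2 GCRMA signal (x axis) of the 15 largest rises (left) and 15 largest falls (right) with piroxicam in each of the 8 arrays at 8 h. Points are arrays, coloured by group (2 per group), black ticks are group means, and the dotted line marks a signal of 100 (log2 6.64); the 30 genes were chosen with separated arrays as a condition, and DDIT4 rose from near background.

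Genes of nutrient stress held the largest rise. DDIT4, which encodes REDD1, an inhibitor of mTORC1, had log2 signals of 2.35 and 2.79 in untreated cells, 3.57 and 4.03 with C, 7.73 and 7.72 with P, and 7.73 and 8.16 with P/C. It went from near background in untreated cells to well above a signal of 100 on all 4 arrays with piroxicam, and its log2 fold change of 4.65 (SE 0.20, adjusted p = 7.0e-05) was the largest of the comparison. Because its untreated level lies at the array median, the fold is a difference of GCRMA signals and not a ratio of measured RNA. TXNIP, a brake on glucose uptake that also binds thioredoxin, had 4.4 and 5.07 untreated, 4.85 and 4.72 with C, 6.65 and 7.47 with P, and 7.10 and 7.70 with P/C. It rose by 2.47 (SE 0.16, adjusted p = 0.00030), and all 3 of its probe sets were called higher, the others by 2.00 and 1.6.

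IRS2, which relays insulin receptor signals, and CCNG2, an unconventional cyclin linked to arrest, are further genes of this kind. IRS2 had 3.87 and 4.05 untreated, 4.47 and 4.69 with C, 6.28 and 6.39 with P, and 6.07 and 7.36 with P/C, a rise of 2.25 (SE 0.19, adjusted p = 0.00098). CCNG2 had 2.52 and 3.57 untreated, 2.18 and 3.61 with C, 5.10 and 5.4 with P, and 4.80 and 5.97 with P/C, a rise of 2.35 (SE 0.17, adjusted p = 0.00061). Both stayed below a signal of 100, except IRS2 in P/C replicate 3. In the list of nutrient stress genes 4 of 17 measured genes were called higher and 0 lower, with a median change of 0.45. For comparison, with 1 probe set per gene 0.451% of 11963 genes were called higher and 0.468% lower, with a median change of 0.01. Of these 11963 genes 6360 had a positive sign and 5603 a negative one. A signal of 100 on any of the 8 arrays was reached by 2823 of them, so most genes behind these shares were dim. In lists of brighter genes the shares are therefore not a like comparison. Without the fold limit 1.94% of probe sets were higher and 3.25% lower at an adjusted p of at most 0.05. FOXO3 and SESN1, at 0.65 and 0.65, passed the adjusted p but not the fold limit.

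BTG1, which slows proliferation, differed between the sides near the limit of the call rule. It had 6.64 and 6.16 in untreated cells, 7.66 and 7.81 with C, 8.23 and 8.21 with P, and 8.06 and 8.31 with P/C. The lowest arrays were the untreated ones, and the C arrays lay between them and the arrays with piroxicam, while the cisplatin effect of 0.65 did not pass the test (adjusted p = 0.85). Its change of 1.14 (SE 0.27) had an adjusted p of 0.0475, which exceeded 0.05 when 1 array was left out in 6 of 8 cases (either untreated array, either P array, C replicate 1 or P/C replicate 3). Without untreated replicate 3 the change was 0.85 (adjusted p = 0.088). The brighter probe set of BTG1 changed by 0.89 and was not called.

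In the list of transcription factors and regulators of the integrated stress response 6 of 12 measured genes were called higher and 0 lower, with a median change of 0.91, against 0.451% called higher over all genes. This list, like the others, was chosen with earlier results of these data known, so its share of calls is a description. DDIT3, which encodes CHOP, had 3.52 and 3.64 in untreated cells, 3.49 and 3.59 with C, 5.90 and 6.04 with P, and 5.78 and 6.27 with P/C. It rose by 2.44 (SE 0.10, adjusted p = 6.1e-05), the smallest adjusted p of the comparison. ATF3 had 3.79 and 3.22 untreated, 5.04 and 4.72 with C, 5.66 and 5.87 with P, and 7.05 and 6.83 with P/C. Its levels were ordered untreated, C, P and P/C, and the piroxicam effect was 2.16 (SE 0.13, adjusted p = 0.00030).

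ATF4, the central factor of the programme, had 8.76 and 9.0 untreated, 8.59 and 9.08 with C, 9.92 and 9.88 with P, and 10.14 and 10.02 with P/C. It rose by 1.13 (SE 0.12, adjusted p = 0.0022). Its dimerization partners changed with it. CEBPG had 5.27 and 4.61 untreated, 5.22 and 5.45 with C, 6.60 and 6.64 with P, and 6.46 and 6.93 with P/C, and rose by 1.52 (SE 0.17, adjusted p = 0.0027). CEBPB had 8.12 and 7.98 untreated, 8.44 and 8.29 with C, 9.25 and 8.98 with P, and 9.50 and 9.32 with P/C, and rose by 1.05 (SE 0.08, adjusted p = 0.00065). TRIB3, a pseudokinase that restrains ATF4 and AKT, had 5.62 and 6.11 untreated, 6.34 and 6.19 with C, 7.78 and 7.57 with P, and 7.48 and 7.56 with P/C, a rise of 1.53 (SE 0.16, adjusted p = 0.0019). The other members were not called. PPP1R15A, which reverses eIF2 phosphorylation, changed by 0.77 (adjusted p = 0.082), and ATF5 by -0.28 (adjusted p = 0.14).

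Genes of amino acid supply that are known targets of ATF4 were higher in part. Of 22 measured genes of amino acid synthesis and transport 3 were called higher and 0 lower, 19 had a positive sign, and the median change was 0.35. ASNS, asparagine synthetase, had 7.45 and 8.33 untreated, 7.76 and 8.14 with C, 8.98 and 9.36 with P, and 8.99 and 9.37 with P/C, a rise of 1.26 (SE 0.11, adjusted p = 0.0010). PSAT1, of serine synthesis, had 7.78 and 7.18 untreated, 7.70 and 8.05 with C, 8.96 and 9.31 with P, and 9.02 and 8.72 with P/C, a rise of 1.33 (SE 0.20, adjusted p = 0.0084). Every array with piroxicam exceeded every array without in both genes, which was a condition of naming them. CTH, of cysteine synthesis, rose by 1.18 (adjusted p = 0.0016) at dim levels, from a mean of 2.83 to 4.01. PHGDH, which opens serine synthesis, had an adjusted p of 0.0064 with a change of 0.98, just under the fold limit. The transporters SLC7A11 and SLC3A2 changed by 0.44 (adjusted p = 0.026) and 0.53 (adjusted p = 0.099) and were not called.

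Among the aminoacyl-tRNA synthetases, which charge tRNAs, 1 of 14 measured genes was called higher. AARS1 had 8.48 and 8.47 untreated, 8.18 and 8.46 with C, 9.86 and 9.55 with P, and 9.78 and 9.44 with P/C, a rise of 1.26 (SE 0.12, adjusted p = 0.0014). CARS1 followed at 0.92 (adjusted p = 0.0071), under the fold limit, while KARS1 and NARS1 changed by -0.04 and -0.01. The list had a median change of 0.11, and 9 members were positive and 5 negative.

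HERPUD1, a component of the degradation of proteins from the endoplasmic reticulum, was the only called gene among 20 measured ER chaperones and genes of the unfolded protein response. It had 7.63 and 7.68 untreated, 7.99 and 7.46 with C, 9.23 and 9.21 with P, and 9.21 and 9.24 with P/C. The 4 arrays with piroxicam were nearly equal, and the rise was 1.53 (SE 0.11, adjusted p = 0.00064). HSPA5, the main chaperone of this compartment, stood at 11 with and 10.93 without piroxicam, a change of 0.07 (adjusted p = 0.79). XBP1 changed by 0.78 (adjusted p = 0.0029), under the fold limit, and DNAJB9 by 0.48 (adjusted p = 0.28).

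The promoters of genes that rose were searched for the composite element bound by C/EBP and ATF4 dimers. The 250 bases before the start sites in RefSeq (GRCh38.p14) were read on both strands for TGATGNAA, where N is any base. Of 64 genes that rose 56 had a promoter in the table, and 6 of these held the letters (10.7%): AARS1, ASNS, ATF3, CEBPG, HERPUD1 and MBNL2. The letters were in 2 of 85 promoters of genes that fell (2.35%) and in 288 of 9563 promoters of all measured genes (3.01%). The carbohydrate response element, searched as the letters CACGNG repeated after a gap of 5 bases, was in TXNIP alone of the 56 (1.79%), in 0 of 85 and in 11 of 9563 (0.115%). A core of FOXO binding, GTAAACA, was in 7.14%, 2.35% and 3.36% of the same sets, and an E2F core, TTTNGCGC, in 3.57%, 3.53% and 2.93%. The heat shock element, GAA, TTC and GAA with gaps of 2 bases, was in 0 promoters of either set and in 0.512% of all. A match is a description of these letters and not a shown binding site.

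The promoters of 4 genes whose rise is described here are shown 5′ to 3′ on the strand of the gene, so that the position of each element can be seen. Capitals mark the match, which in AARS1 and HERPUD1 lies on the opposite strand. The match begins 68 bases before the start site in ASNS (chr7:97872409-97872658, minus strand), 187 in AARS1 (chr16:70289507-70289756, minus strand), 176 in HERPUD1 (chr16:56931892-56932141, plus strand) and 88 in TXNIP (chr1:145996580-145996829, minus strand).
ASNS: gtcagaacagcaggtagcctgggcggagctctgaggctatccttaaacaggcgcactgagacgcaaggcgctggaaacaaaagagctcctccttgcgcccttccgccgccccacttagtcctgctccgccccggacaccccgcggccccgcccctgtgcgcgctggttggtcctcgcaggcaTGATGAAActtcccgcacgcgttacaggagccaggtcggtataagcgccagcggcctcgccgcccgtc
AARS1: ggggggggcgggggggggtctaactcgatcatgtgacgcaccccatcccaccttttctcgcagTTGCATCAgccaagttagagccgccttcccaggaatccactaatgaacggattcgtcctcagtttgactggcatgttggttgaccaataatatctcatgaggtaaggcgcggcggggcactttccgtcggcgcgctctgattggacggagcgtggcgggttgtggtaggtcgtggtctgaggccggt
HERPUD1: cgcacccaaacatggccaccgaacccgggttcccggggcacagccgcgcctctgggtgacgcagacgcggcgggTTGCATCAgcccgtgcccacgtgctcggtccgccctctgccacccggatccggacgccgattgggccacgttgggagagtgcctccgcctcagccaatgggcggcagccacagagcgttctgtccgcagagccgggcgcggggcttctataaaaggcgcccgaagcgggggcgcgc
TXNIP: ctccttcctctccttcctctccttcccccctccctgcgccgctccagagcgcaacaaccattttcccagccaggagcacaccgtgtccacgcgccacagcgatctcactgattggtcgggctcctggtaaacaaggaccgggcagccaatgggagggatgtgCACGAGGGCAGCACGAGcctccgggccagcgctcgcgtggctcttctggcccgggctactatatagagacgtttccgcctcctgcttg

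Neutrophil chemokines of 1 family moved in opposite directions. CXCL3 had 7.60 and 6.86 untreated, 7.56 and 7.16 with C, 8.82 and 8.49 with P, and 8.52 and 8.33 with P/C, a rise of 1.25 (SE 0.12, adjusted p = 0.0016). CXCL2 had 9.24 and 9.46 untreated, 9.05 and 9.14 with C, 10.17 and 10.36 with P, and 9.94 and 10.51 with P/C, a rise of 1.02 (SE 0.11, adjusted p = 0.0021). The rise of CXCL2 fell under the fold limit, at 0.95 and 0.92, without C replicate 3 or P/C replicate 3. CXCL1 went the other way, with 6.93 and 6.91 untreated, 7.18 and 6.95 with C, 5.6 and 6.0 with P, and 5.19 and 6.14 with P/C, a fall of 1.26 (SE 0.18, adjusted p = 0.0069). These genes have similar sequences, and probe sets of CXCL1, CXCL2 and CXCL3 may share signal. Of 23 measured chemokines, cytokines and NF-kB targets 2 were called higher and 1 lower, with a median of -0.01. IL1B changed by -1.0 (adjusted p = 0.0026), just under the fold limit and not called, and CXCL8 by -0.19 (adjusted p = 0.45) from a mean of 10.60.

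The remaining large rises belonged to no common list. EVI2A, a membrane protein, had 6.33 and 6.81 untreated, 6.32 and 6.77 with C, 7.76 and 8.55 with P, and 7.34 and 8.66 with P/C, and rose by 1.52 (SE 0.15). NBR1, a receptor of selective autophagy, had 5.5 and 6.01 untreated, 5.15 and 5.15 with C, 6.66 and 6.97 with P, and 6.71 and 6.94 with P/C, and rose by 1.37 (SE 0.15). In both genes the P and P/C arrays overlapped each other. They lay above all arrays without piroxicam, which was a condition of naming the genes. KRCC1 rose by 1.37 (SE 0.14), from a mean of 6.22 to 7.59. CIRBP, a cold-inducible RNA-binding protein, rose by 1.21 (SE 0.16), from 6.54 to 7.74, and its other probe set by 1.09. CETN3, a centrin of the centrosome, rose by 1.16 (SE 0.12), from 7.68 to 8.83. The adjusted p of these 5 genes lay between 0.0015 and 0.0048.

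Called rises outside the rule for naming, picked after their values were seen, included GDF15, a secreted stress cytokine of the TGF-beta family and a target of p53. It had 6.85 and 6.80 untreated, 8.09 and 8.88 with C, 8.68 and 9.21 with P, and 9.67 and 9.77 with P/C. The C and P arrays overlapped, and the piroxicam effect was 1.68 (SE 0.21, adjusted p = 0.0037). With the brightest probe set of each listed gene, GDF15 was the 1 called gene of 21 p53 targets and of 21 TGF-beta and BMP genes. Probe sets outside this count were called for other genes of TGF-beta and BMP signals. TGIF1, ACVR1 and SMAD1 were higher, at 1.645, 1.086 and 1.08, and FST was lower, at -1.018. CDKN1A, the p21 gene, had 7.87 and 7.70 untreated, 9.04 and 8.99 with C, 8.18 and 8.11 with P, and 9.41 and 8.77 with P/C. Its arrays with C and P/C stood above the rest, and the piroxicam effect was 0.22 (SE 0.12, adjusted p = 0.47). SPTLC2 and UGCG, enzymes of ceramide and glucosylceramide synthesis, rose in their most changed probe sets by 1.67 and 1.42, and MNT and HBP1, transcriptional repressors, by 1.36 and 1.40. CCN1, a matricellular protein and the 1 called gene of 13 YAP and TEAD targets, rose by 1.10 from a mean of 9.94, and by 0.9993 without P/C replicate 1, just under the fold limit. NFIL3, the 1 called gene of 13 clock genes, rose by 1.07 and lost its call in 5 of 8 cases with 1 array left out (untreated replicate 1, either P array, C replicate 3 or P/C replicate 3).

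The 16 gene lists plotted by their members differed in how many genes passed the call rule, and apart from the stress transcription factors most genes of each lay between -1 and 1.

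**Figure D2:**
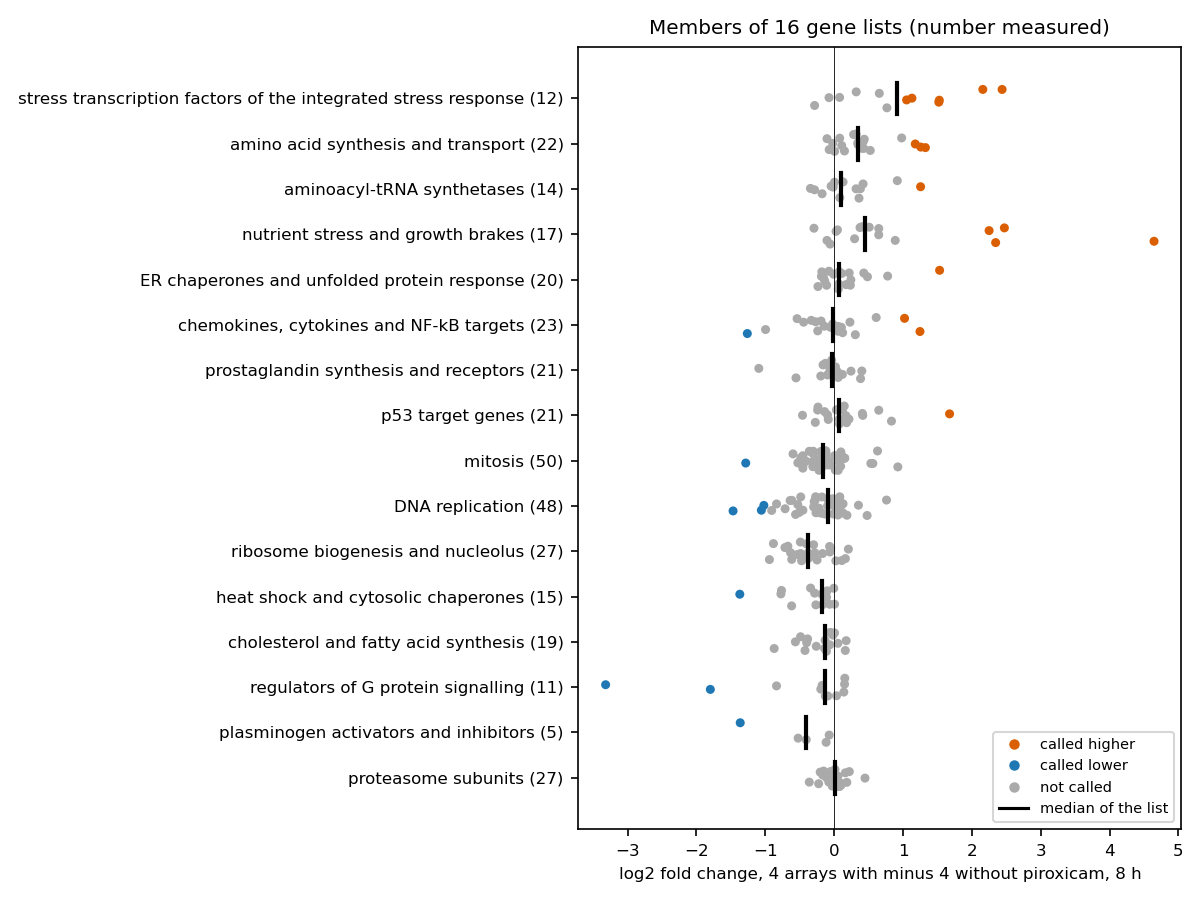
Log2 fold change at 8 h, 4 arrays with minus 4 without piroxicam (x axis), of each measured member of 16 gene lists (y axis, number measured in parentheses). Points are genes, coloured by call, and bars are list medians; the stress transcription factors had the highest median (0.91), with 6 of 12 called, while only falls were called in the lists of G protein regulators, DNA replication, mitosis, heat shock and plasminogen activators.

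RGS4 had the largest fall. It encodes a regulator that shortens signalling by Gi and Gq proteins, and had 8.42 and 7.94 untreated, 8.36 and 7.50 with C, 5.5 and 4.66 with P, and 4.34 and 4.44 with P/C. The change was -3.32 (SE 0.17, adjusted p = 0.00019), and its 2 other probe sets changed by -2.09 and -1.85. RGS2, which acts on Gq, had 6.16 and 6.01 untreated, 6.89 and 5.6 with C, 4.47 and 4.09 with P, and 4.58 and 4.34 with P/C, a change of -1.80 (SE 0.17, adjusted p = 0.0016). All arrays of both genes with piroxicam lay below all without, which for RGS4 was a condition of naming it. The other 9 of 11 measured RGS genes were not called. RGS3 was nearest at -0.84 (adjusted p = 0.0056).

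ADM and PLAUR, genes of secreted and surface proteins, fell as well. ADM, adrenomedullin, a vasodilator peptide, had 6.26 and 7.39 untreated, 6.57 and 7.42 with C, 4.18 and 4.87 with P, and 4.09 and 5.80 with P/C. Within each group the array of replicate 3 was the higher, and the change was -2.17 (SE 0.16, adjusted p = 0.00061). ADM is a target of hypoxia factors, and was the 1 called gene of 32 measured in the list of hypoxia and glycolysis, whose median was 0.01. PLAUR, the urokinase receptor, had 6.53 and 6.23 untreated, 6.43 and 6.42 with C, 5.18 and 4.55 with P, and 5.62 and 4.80 with P/C, a change of -1.36 (SE 0.14, adjusted p = 0.0021). All 5 genes of plasminogen activation had a negative sign and 1 was called. PLAT and PLAU changed by -0.52 (adjusted p = 0.033) and -0.41 (adjusted p = 0.073). WT1, the transcription factor used as a mesothelioma marker, changed by -1.10 (adjusted p = 0.0026) from a mean of 6.17 and was the 1 called gene of 14 mesothelial markers.

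Regulators of splicing and transcription were among the falls. PRP4K, a kinase of the spliceosome, had 7.88 and 8.17 untreated, 8.04 and 8.20 with C, 5.32 and 5.56 with P, and 4.46 and 5.59 with P/C, a change of -2.84 (SE 0.18, adjusted p = 0.00030). Its dimmer probe sets changed by -1.52, which was called, and -0.58, which was not. RBM25, which guides splice site choice, had 6.65 and 6.83 untreated, 7.02 and 7.20 with C, 5.49 and 5.53 with P, and 4.20 and 5.09 with P/C, a change of -1.85 (SE 0.25, adjusted p = 0.0059). All 5 probe sets of RBM25 were called lower, between -1.43 and -1.85. JMJD6, a dioxygenase that binds splicing factors, had 6.63 and 6.97 untreated, 6.70 and 6.56 with C, 4.70 and 4.73 with P, and 4.42 and 5.01 with P/C, a change of -2.0 (SE 0.13, adjusted p = 0.00030). HEXIM1, an inhibitor of the elongation kinase P-TEFb, had 7.70 and 7.50 untreated, 8.12 and 7.79 with C, 5.98 and 6.42 with P, and 6.03 and 7.29 with P/C, a change of -1.35 (SE 0.23, adjusted p = 0.015). Its adjusted p was 0.057 without P replicate 1 and 0.067 without P replicate 3. Its dimmer probe set changed by -2.14 and was called.

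Further RNA-processing genes fell, and these were picked after their values were seen. SRSF11 changed by -2.14 in 1 probe set, PRPF38B by -1.76, CLK1, a kinase of SR proteins, by -1.59, PNISR by -1.44, RBM12 by -1.21, PNN by -1.23 and CPSF6 by -1.17. POP1, of ribonuclease P, changed by -2.07, from a mean of 6.29 to 4.22. The brightest probe sets of SRSF11, CPSF6, PNN and PNISR changed by -0.48, -0.66, -0.79 and -0.03 and were not called. Whole families gave a smaller picture. With the brightest probe set of each gene, 1 of 9 SRSF genes was called lower (SRSF6) and all 9 had a negative sign, with a median of -0.39. SRSF6 changed by -1.32 (adjusted p = 0.032), and its adjusted p reached 0.136 with 1 array left out. Of 31 RBM genes 3 were called lower (RBM12, RBM25 and RBM8A), and the median was -0.09. Of 9 PRPF genes 1 was called lower, of 28 DDX genes 1, of 7 karyopherins 1 (KPNA4), and of 19 HNRNP genes 0, beside 0.468% of all genes. Probe sets that did not enter these counts were also called lower. They included HNRNPDL at -1.219, KPNB1 at -1.208 and -1.026, and KPNA1 at -1.172.

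Genes of translation and protein turnover were named by 1 of several probe sets each, and these did not move alike. EIF5, which drives GTP hydrolysis at the start codon, had 9.20 and 9.73 untreated, 9.52 and 9.64 with C, 8.17 and 7.91 with P, and 8.22 and 8.09 with P/C, a change of -1.42 (SE 0.13, adjusted p = 0.0013). Its 4 other probe sets changed by -0.56 to -0.82, all at an adjusted p of at most 0.030. EIF1AX, of start codon scanning, changed by -1.33 (SE 0.20, adjusted p = 0.0086) in 1 probe set and by -0.52, -0.20 and -0.10 in the brighter others. Its adjusted p was 0.051 without P replicate 3. PSMD12, a subunit of the proteasome lid, changed by -1.31 (SE 0.09, adjusted p = 0.00057) in a probe set with means of 8.00 without and 6.69 with piroxicam, and by -0.36 (adjusted p = 0.065) in a brighter one. With the brightest probe set of each gene 0 of 27 proteasome genes were called, and the median was 0.01. Other probe sets of the proteasome genes PSMD11 and PSMC2 were called lower, at -1.276 (adjusted p = 0.0011) and -1.003 (adjusted p = 0.0037). PGRMC2, a haem-binding membrane protein, changed by -1.62 (SE 0.20) in 1 probe set and by -0.53 (adjusted p = 0.083) in the other. SH3GLB1 was the 1 called gene with a probe set of opposite sign at an adjusted p of at most 0.05, at -1.47 and 0.45.

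The rest of the named falls were of nuclear import, ribosome assembly and the spindle. RANBP6, related to importins, changed by -1.58 (SE 0.21), from a mean of 8.16 to 6.59. UTP3, of the small ribosomal subunit processome, changed by -1.26 (SE 0.13), from 8.36 to 7.09. ZNF207, a spindle assembly factor that is also known as BuGZ, changed by -1.23 (SE 0.12), from 9.51 to 8.27, and by -1.0 in its other probe set. In the list of ribosome biogenesis 0 of 27 measured genes were called, but 23 had a negative sign, 7 passed the adjusted p in that direction and 0 in the other (3.49% and 2.55% of all genes), and the median was -0.38. WDR43 and RRS1 were lowest, at -0.94 (adjusted p = 0.0083) and -0.88 (adjusted p = 0.0040). A signal of 100 on any of the 8 arrays was reached by 20 of the 27, against 2823 of all 11963 genes.

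Few genes of DNA replication passed the call rule at 8 h. GINS3, a subunit of the replicative helicase, had 6.83 and 6.22 untreated, 7.32 and 6.36 with C, 5.26 and 4.95 with P, and 5.5 and 5.15 with P/C, a change of -1.47 (SE 0.12, adjusted p = 0.00087). Its other probe set changed by -1.26. GINS1, of the same complex, changed by -1.06 (adjusted p = 0.0087), and by -0.96 without C replicate 1 and -0.86 without P/C replicate 1. ORC1, of the origin recognition complex, changed by -1.02 (adjusted p = 0.00085), and by -0.99 without untreated replicate 1. These were the 3 called genes of 48, whose median was -0.09. Without the fold limit 12 of the 48 passed the adjusted p as lower and 1 as higher, beside 3.49% and 2.55% of all genes. A signal of 100 on any of the 8 arrays was reached by 34 of the 48, against 2823 of all 11963 genes. KIF11, the spindle kinesin, was the 1 called of 50 mitosis genes, at -1.28 (adjusted p = 0.022), with a list median of -0.16. CCNE2, cyclin E2, was the 1 called of 20 G1 genes, at -1.35 (adjusted p = 0.029). KIF11 and CCNE2 each lost the call in 4 of 8 cases with 1 array left out. For KIF11 these were both untreated arrays, P replicate 3 and C replicate 1, and for CCNE2 both C arrays, P replicate 3 and P/C replicate 3.

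Cytosolic chaperones were lower in sign. Of 15 measured heat shock genes 14 were negative, 1 was called lower and the median was -0.18. Over all 11963 genes 5603 were negative and 0.468% were called lower. Of the 15 genes 14 reached a signal of 100 on any of the 8 arrays, against 2823 of the 11963. DNAJB1, a co-chaperone of HSP70, had 6.89 and 5.6 untreated, 6.04 and 6.73 with C, 4.67 and 5.04 with P, and 4.97 and 5.11 with P/C in the brighter of 2 called probe sets, a change of -1.37 (SE 0.27, adjusted p = 0.026). That call was lost in 5 of 8 cases with 1 array left out (either P array, either P/C array or C replicate 3), while the other probe set, at -1.74 (adjusted p = 0.00030), kept it in all 8. DNAJA1 and BAG3 changed by -0.77 (adjusted p = 0.0031) and -0.76 (adjusted p = 0.011), under the fold limit. With the brightest probe set of each listed gene, IFIT5 was the 1 called of 23 interferon-stimulated genes, at -1.14 (adjusted p = 0.020). It lost the call in 6 of 8 cases with 1 array left out (untreated replicate 3, either P array, C replicate 1 or either P/C array). Outside this count a probe set of OASL, also interferon-stimulated, was called higher, at 1.14 (adjusted p = 0.0063). That call was kept in 7 of 8 cases, at dim means of 3.95 without and 5.10 with piroxicam and with overlapping arrays.

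The genes of the drug's own pathway did not pass the test. PTGS2 had a mean log2 signal of 2.13 with and 2.13 without piroxicam, below the array medians, with a change of 0.0003 (adjusted p = 0.999). The 3 probe sets of PTGS1 had means between 1.96 and 2.21 on both sides, and their adjusted p ranged from 0.82 to 0.92. Levels this near background do not show whether either gene changed. Of 21 measured genes of prostaglandin synthesis and reception 0 were called and the median was -0.03. PTGER4, a receptor of prostaglandin E, had the smallest p, at -1.09 (adjusted p = 0.070).

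With the brightest probe set of each gene, no gene was called in 16 of the 34 pathway lists. The prostaglandin, ribosome and proteasome lists were among them, and the medians of these 16 lay between -0.38 and 0.29. Several genes of these lists passed the adjusted p at changes under 1. Among regulators of survival, BIRC2, an inhibitor of apoptosis, changed by -0.81 (adjusted p = 0.0029) and MCL1, a BCL2 relative, by -0.65 (adjusted p = 0.0049), while 0 of 18 death receptor and caspase genes and 0 of 14 BCL2 family genes were called. Of 18 immediate early genes IER3 changed by -0.78 (adjusted p = 0.0051), of 14 ERK feedback genes DUSP1 by 0.66 (adjusted p = 0.015), and of 11 Kruppel-like factors KLF5 by -0.74 (adjusted p = 0.0042). RAD50, of 23 DNA repair genes, changed by 0.85 (adjusted p = 0.022). Other probe sets of DNA damage and repair genes, outside this count, were called in both directions. H2AX and TDG were lower, at -1.086 and -1.146, and RAD17 and POLI higher, at 1.141 and 1.089. HMGCS1, of 19 genes of cholesterol and fatty acid synthesis, changed by -0.87 (adjusted p = 0.017). A probe set of INSIG1, a regulator of sterol synthesis, did not enter that count and was called lower, at -1.197 (adjusted p = 0.0023).

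In the other lists without a call the members with the smallest p were as follows. SLC7A11 and GCLC, at 0.44 (adjusted p = 0.026) and 0.55 (adjusted p = 0.045), led the 21 NRF2 and glutathione genes, and MT1F, at 0.48 (adjusted p = 0.021), the 8 metallothioneins, whose median of 0.29 was the highest of these lists. SPARC, at -0.53 (adjusted p = 0.011), led the 27 matrix genes. HADHA, at 0.34 (adjusted p = 0.17), had the smallest p of 14 PPAR targets, HBEGF, at -0.35 (adjusted p = 0.065), of 9 EGF receptor genes, and ABCG2, at -0.30 (adjusted p = 0.25), of 12 genes of copper and platinum transport. EGFR itself was represented by a probe set that was not called, while a dimmer one rose by 1.24.

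The question whether cisplatin altered the response to piroxicam was addressed by separate fits and by the test of their difference. Without cisplatin, P against untreated called 109 probe sets (0.491%), 52 higher (0.234%) and 57 lower (0.257%). With cisplatin, P/C against C called 119 (0.536%), 39 higher (0.176%) and 80 lower (0.36%). These 2 comparisons share no arrays. Over all 22215 probe sets the correlation of their log2 fold changes was 0.61, and over the 3564 with a mean signal of at least 100 it was 0.75, as a description, since the probe sets of an array are not independent. The test of the difference called 0 probe sets in limma, with 890 (4.01%) at an unadjusted p under 0.05 and a smallest adjusted p of 0.973. Both counts of calls rest on few arrays, and fell to between 1 and 2 for P against untreated when any of its 4 arrays was left out, and to between 2 and 25 for P/C against C without either C array or P/C replicate 1.

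**Figure D3:**
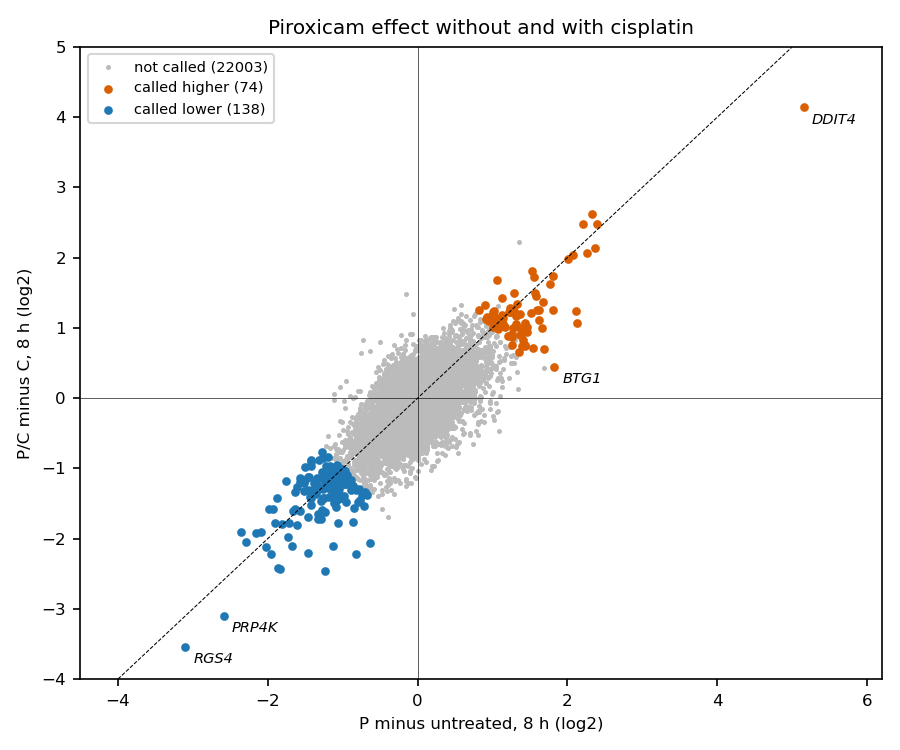
Piroxicam effect at 8 h without cisplatin (x axis, P minus untreated, log2) against with cisplatin (y axis, P/C minus C, log2). Points are probe sets, coloured where called in the comparison of all 8 arrays (74 higher, 138 lower), and the dashed line marks equal effects; the called probe sets were chosen on the mean of both axes, and DDIT4 and BTG1 lie below the line.

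Several named genes differed in size between the effects before adjustment. CCNE2 changed by -0.63 without and -2.06 with cisplatin (unadjusted p of the difference 0.00095). DDIT4 rose by 5.15 without and 4.14 with cisplatin (unadjusted p 0.0022), and its C arrays lay above its untreated arrays. BTG1 rose by 1.82 without and 0.45 with cisplatin (unadjusted p 0.0012), with the same order. PGRMC2 changed by -1.13 without and -2.11 with cisplatin (unadjusted p 0.0021), and RBM25 by -1.23 and -2.46 (unadjusted p 0.0040). None of these passed adjustment. HERPUD1, at 1.56 and 1.5, ASNS, at 1.28 and 1.24, and EIF5, at -1.42 and -1.42, differed little between the effects.

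The same contrast was made in the 10 arrays taken at 24 h, which the 8 h comparison did not use. At 24 h 224 probe sets were called (1.01%), 82 higher (0.369%) and 142 lower (0.639%). With the replicate number as a block, as at 8 h, the count at 24 h was 0, so the calls and overlaps given for 24 h hold for the model without it. The count also rested on single arrays, and was 0 without either untreated array, P replicate 1 or P replicate 3. Of the 74 rises at 8 h 73 had a positive change at 24 h, and of the 138 falls 136 a negative one, while over all probe sets 52.4% were positive and 47.6% negative. The median 24 h change was 0.96 for the rises and -0.91 for the falls. Called at both times were 9 rises (12.2% of those at 8 h and 11% of those at 24 h) and 29 falls (21.0% and 20.4%), and 0 probe sets were called in opposite directions.

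Array P/C replicate 1 at 24 h went against its label in these genes. Its median distance from the mean of the untreated arrays was 0.12 over the 8 h rises and -0.44 over the 8 h falls, whereas P/C replicate 3 had 1.36 and -1.07 and the 3 P arrays 1.01 to 1.39 and -1.36 to -1.49. The 3 C arrays had -0.19 to 0.20 and -0.28 to -0.53, so P/C replicate 1 was in their range. C replicate 1 at 24 h stood apart as well and lay near the untreated arrays. ATF3 had 5.09 in it, against 9.27 and 9.18 in the other C arrays and 4.67 and 4.01 in untreated cells, and CDKN1A had 8.66, against 10.7 and 11.5, and 8.72 and 8.2. In P/C replicate 1 these genes had 9.52 and 11.3, near C replicates 2 and 3. Whether labels were exchanged was not tested, and the choice to leave out both arrays was known from earlier results of these data. Without these 2 arrays 709 probe sets were called at 24 h (3.19%), 298 higher (1.34%) and 411 lower (1.85%). Of these 40 were among the 74 rises and 74 among the 138 falls at 8 h in the same direction, and again 0 in the opposite. Since P/C replicate 1 stood apart in these very genes, the larger overlap follows in part from leaving it out and is a description.

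**Figure D4:**
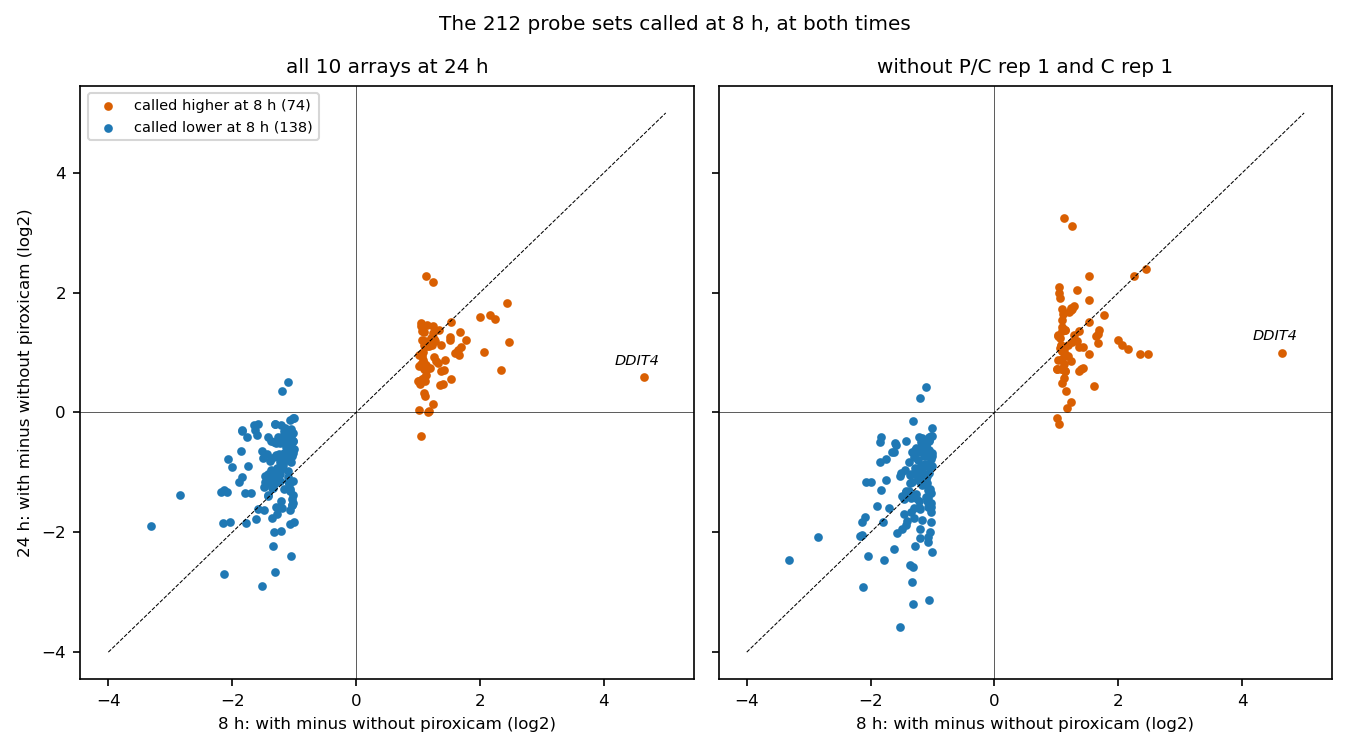
Change with piroxicam at 8 h (x axis, log2) against at 24 h (y axis, log2) of the 212 probe sets called at 8 h, with all 10 arrays at 24 h (left) and without P/C replicate 1 and C replicate 1 (right). Points are probe sets, the dashed line marks equal effects, and nearly all points keep their sign at 24 h; DDIT4 lies far below the line in both panels.

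DDIT4 was the 1 probe set of 22215 (0.0045%) called for a difference of its effect between the times. In the same limma test 1458 probe sets (6.56%) had an unadjusted p under 0.05, and a missing call does not show equal effects. The change of DDIT4 at 24 h was 0.59, and the test of 24 h minus 8 h gave -4.06 (SE 0.49, adjusted p = 0.010). At 24 h it had 8.39 and 6.65 in untreated cells, 8.61, 7.66 and 8.14 with C, 8.58, 8.52 and 8.68 with P, and 7.70 and 8.77 with P/C. Of the 5 arrays with piroxicam at 24 h 4 were brighter than all 4 at 8 h, and the 5 arrays without piroxicam at 24 h were all brighter than the 4 at 8 h, which reached 4.03. Without the 2 arrays named above the difference was -3.65 (adjusted p = 0.0020), and 128 probe sets (0.576%) were then called for a difference.

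Of the 15 named rises 2 were called at 24 h in all 10 arrays (CEBPG at 1.20 and NBR1 at 1.12), and 10 without the 2 arrays. CXCL3 was larger at 24 h than at 8 h, at 2.19 (adjusted p = 0.073) and 3.11 without the 2 arrays (adjusted p = 6.6e-05). CETN3 was at 0.02 (adjusted p = 0.99) and 0.35. Of the 15 named falls 4 were called at 24 h, PSMD12 at -2.67, EIF1AX at -2.23, PGRMC2 at -1.78 and RANBP6 at -1.61, and 12 without the 2 arrays. RBM25 was at -0.29 (adjusted p = 0.43), and at -0.50 without them. None of these differences between times passed adjustment with all 18 arrays. For CXCL3 the difference was 0.94 with all 18 and 1.86 without the 2 arrays, and for PSMD12 -1.36 and -1.88. The fit without them left P/C replicate 3 as the only P/C array at 24 h.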

How the data were processed

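The series holds 18 HGU133A arrays of MSTO-211H RNA, and the 8 arrays at 8 h were compared here. The deposited values are log2 signals that the authors made with GCRMA (version not given in the sources used here), which corrects for background and normalizes between arrays, after arrays with outlying intensities had been removed. All 18 columns were mapped to samples by their labels, with 0 columns left unmapped. After removal of 68 control probe sets of the manufacturer, the other 22215 of 22283 were tested without further filter. The model, in limma 3.58.1 (R 4.3.3), had terms for piroxicam, cisplatin and replicate number (4 residual and 4.47 prior degrees of freedom), and the fit was tested on simulated data. P values are two-sided and adjusted by the Benjamini-Hochberg method over all probe sets, and errors are standard errors (SE). The number of arrays limits the precision. The sources describe replicates as biological, and do not say what a replicate number shares. At 8 h same-numbered arrays deviated together from their group means (r between 0.165 and 0.469 over 6 group pairs, each above 0.1), and the number was used as a block. Arrays at 24 h were fitted without the block, and the difference between times in all 18 arrays. Names came from GEO's annotation of the platform, where 19065 of those tested have 1 symbol, 1043 several and 2107 none. Named genes were the 15 largest rises and falls of called probe sets with 1 symbol, separated arrays and a mean signal of at least 100 on the higher side, the called members of 34 pathway and 4 marker lists, and PTGS1, PTGS2 and CDKN1A. A list gene was represented by its brightest probe set. The members, the lists and this rule were chosen with earlier results of these data known. Alternatives were the filter of the study's methods (interquartile range 0.25 or more, and 25% of the arrays with signals of 100 or more), another normalization, other variance settings, the block, and each array left out. Some items are not reported here.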

Additional observations from a re-analysis of the deposited data

Results flagged for a closer look

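DDIT4 differed in its piroxicam effect between the 2 times, by -4.06 on the log2 scale at 24 h against 8 h (SE 0.49, adjusted p = 0.010 in limma over all probe sets). The mean change was 4.65 at 8 h and 0.59 at 24 h. The adjusted p exceeded 0.05 when P replicate 1 or P replicate 3 at 8 h was left out. The untreated arrays had 2.35 and 2.79 at 8 h and 8.39 and 6.65 at 24 h, and the cause of that difference was not tested.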

How the results depend on the processing

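The 8 h comparison of 212 probe sets fell to 73 (34 higher, 39 lower) of 3057 with the filter of the study's methods, and to 76 of 3927 with a signal of at least 100 in 2 of 8 arrays. Of the reported calls that entered these smaller tables, 71 of 71 and 76 of 76 were kept. It fell to 127 with all 18 arrays and 1 mean per group, and to 70 within replicate 1 alone, and rose to 1155 with no fold limit. It stayed between 162 and 250 with quantile normalization, median centring, other variance settings, array weights, within replicate 3, and without the replicate block (162), and between 171 and 221 with 1 array left out. All 212 kept their sign under each of these settings that tested them. Without the replicate block P against untreated fell from 109 to 13 and P/C against C from 119 to 3, and with the filter they were 72 and 75. With 1 array left out they ranged from 1 to 112 and from 2 to 115, and a group left with 1 array was assumed to vary like the others. P/C against C called 9 without either P array and 74 without either untreated array, although these arrays enter only the estimate of the spread. The test of their difference called 0 under every setting. At 24 h the 224 calls became 0 with a replicate block and 709 without P/C replicate 1 and C replicate 1, and ranged from 0 to 694 with 1 array left out, the highest without P/C replicate 1. They were 0 without either untreated array, P replicate 1 or P replicate 3, 9 without P/C replicate 3, 54 without P replicate 2, 103 without C replicate 1 and 105 without C replicate 2. The 1 call between times became 3 with quantile normalization, 128 without the 2 arrays, and 0 to 126 with 1 array left out, 0 without either P array at 8 h and 126 without P/C replicate 1 at 24 h. Of 50 genes followed under 18 settings, 17 were called in each setting that tested them, and no result reversed. The filter of the study's methods tested 35 of the 50, and the filter on 2 of 8 arrays 38. The replicate block was decisive for the calls of BTG1, CTH, CCNE2, KIF11 and NFIL3, which were lost without it. The causes were not tested.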
